A study of Mus musculus with 9 samples.

Results

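The 8 genes described here encode carriers that move amino acids across the plasma membrane of mouse cortical neurons: Slc7a5, Slc3a2, Slc7a1, Slc7a3, Slc1a4, Slc1a5, Slc38a1 and Slc38a2. They were taken by symbol from the 54232 genes in the count tables, and 8 of 8 passed the filter on low counts that left 15712 genes for testing. RNA was sequenced from 9 libraries of cells labelled as cortical neurons, wildtype and CD1, an outbred mouse stock, in 3 groups of 3 repeats. The control libraries carry the name PDL, which the labels do not spell out. The PA libraries carry the name IKVAV, a laminin sequence displayed on a peptide amphiphile, a lipid-tailed peptide whose molecules stack into nanofibres. The PA + PS2 libraries carry the name IKVAV plus PEDOT-S-OH, a name of the PEDOT family of conducting polymers, and PS2 itself is not explained. Because the treatment field of the controls also names the peptide amphiphile, against their titles, the groups were taken from the titles. No amount, exposure time or animal age is given. Nothing in the labels says that the repeats came from separate cultures, and the p-values then measure only a spread between samples that may be technical.

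An animal cell cannot make the essential amino acids and takes them up through membrane carriers, many of which exchange an internal amino acid for an external one. Supply through these carriers feeds protein synthesis and the mTORC1 growth pathway. When amino acids run short or the unfolded protein response is active, the transcription factor ATF4 raises the transcription of several such carriers along with amino acid synthesis enzymes and aminoacyl-tRNA synthetases. In the brain the same families also move glutamine and serine between glia and neurons, where glutamine is a source of the transmitter glutamate. Slc7a5 encodes LAT1, which carries leucine and other large neutral amino acids, and Slc3a2 encodes CD98hc, the heavy chain that brings LAT1 to the membrane. Slc7a1 and Slc7a3 encode the cationic amino acid transporters CAT1 and CAT3, which carry arginine and lysine. Slc1a4 and Slc1a5 encode the exchangers ASCT1 and ASCT2 of small neutral amino acids. Slc38a1 and Slc38a2 encode SNAT1 and SNAT2, sodium-coupled carriers of glutamine and alanine.

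Some of these genes are known ATF4 targets, so the DNA around their start sites was searched for the C/EBP-ATF response element, written as TGATGNAA on either strand. RefSeq promoter windows (GRCm38.p6, from 250 bases before the start to 50 after) were given for 4 of the 8 genes: Slc3a2, Slc7a1, Slc1a4 and Slc38a2. The windows of these 4 genes numbered 5, and the motif was found in 1 of them, that of Slc1a4, where the reverse complement begins 4 bases before the start and runs across it. The motif occurred in 3.97% of all 32851 windows. It occurred in 10.3% of the 29 windows of other plasma membrane amino acid transporters, in 32.0% of the 25 windows of amino acid response and synthesis genes and in 38.5% of the 13 windows of cytosolic aminoacyl-tRNA synthetases. A match describes letters and not a bound site, and its absence says only that these letters are not in the window. The stretches from 100 bases before to 10 after the start are shown for Slc1a4, chr11:20332704-20332813, Slc3a2, chr19:8713888-8713997, and Slc38a2, chr15:96699719-96699828. They show the member with the motif, a member with similar library values and no motif, and a member with different values and no motif. The part of the motif in the levels was not tested. The 80 bases before the start are shown for Asns, chr6:7693210-7693289, and Slc7a11, chr3:50443614-50443693, as genes of the lists used further on that hold the motif. All are on the minus strand, read 5′ to 3′, with the motif in capitals.
Slc1a4: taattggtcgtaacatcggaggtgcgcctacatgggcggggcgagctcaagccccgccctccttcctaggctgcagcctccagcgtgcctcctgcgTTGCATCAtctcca
Slc3a2: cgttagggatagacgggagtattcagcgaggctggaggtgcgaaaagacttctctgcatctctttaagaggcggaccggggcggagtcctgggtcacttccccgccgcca
Slc38a2: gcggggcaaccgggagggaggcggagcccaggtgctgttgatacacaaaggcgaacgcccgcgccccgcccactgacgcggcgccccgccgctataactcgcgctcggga
Asns: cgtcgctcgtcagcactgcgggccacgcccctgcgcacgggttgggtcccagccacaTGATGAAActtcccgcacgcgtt
Slc7a11: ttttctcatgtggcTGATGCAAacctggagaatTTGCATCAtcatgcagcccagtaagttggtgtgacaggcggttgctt

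Library totals ran from 20746851 to 27237398 counts, and mitochondrially encoded genes took 0.342% to 1.39% of them. Levels are given in CPM, reads of a gene relative to all reads of its library after TMM scaling. Summed neuron markers, among them Map2, Rbfox3 and Snap25, stood at 6737 to 8006 CPM, against 173 to 289 CPM for the astrocyte markers, 50.5 to 85.6 CPM for the oligodendrocyte lineage and 3.86 to 8.999 CPM for microglia. Each list had counts for every marker in at least 1 library. The comparison of PA with control called 0 genes, that of PA + PS2 with control called 7, all lower, and that of PA + PS2 with PA called 0, by the quasi-likelihood test of edgeR at an adjusted p under 0.05. With the repeat number as a block in the fit, PA + PS2 against control called 184 genes. These samples are bulk RNA, in which fewer cells of a type and less RNA per cell cannot be told apart.

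In PA + PS2, 5 carriers had higher levels in every library than in every control library: Slc7a5, Slc3a2, Slc7a1, Slc7a3 and Slc1a4. Slc1a5, Slc38a1 and Slc38a2 had log2 fold changes between 0.00 and 0.03 in that comparison. In PA alone all 8 lay within 0.13 log2 units of control. None of the 8 passed the edgeR test over all genes in any of the 3 comparisons, and 3 passed for PA + PS2 against control with the repeat block. The genes were chosen by their differences in these same contrasts between PA + PS2, PA and control, so the values describe them and are no independent evidence of a direction.

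**Figure D1:**
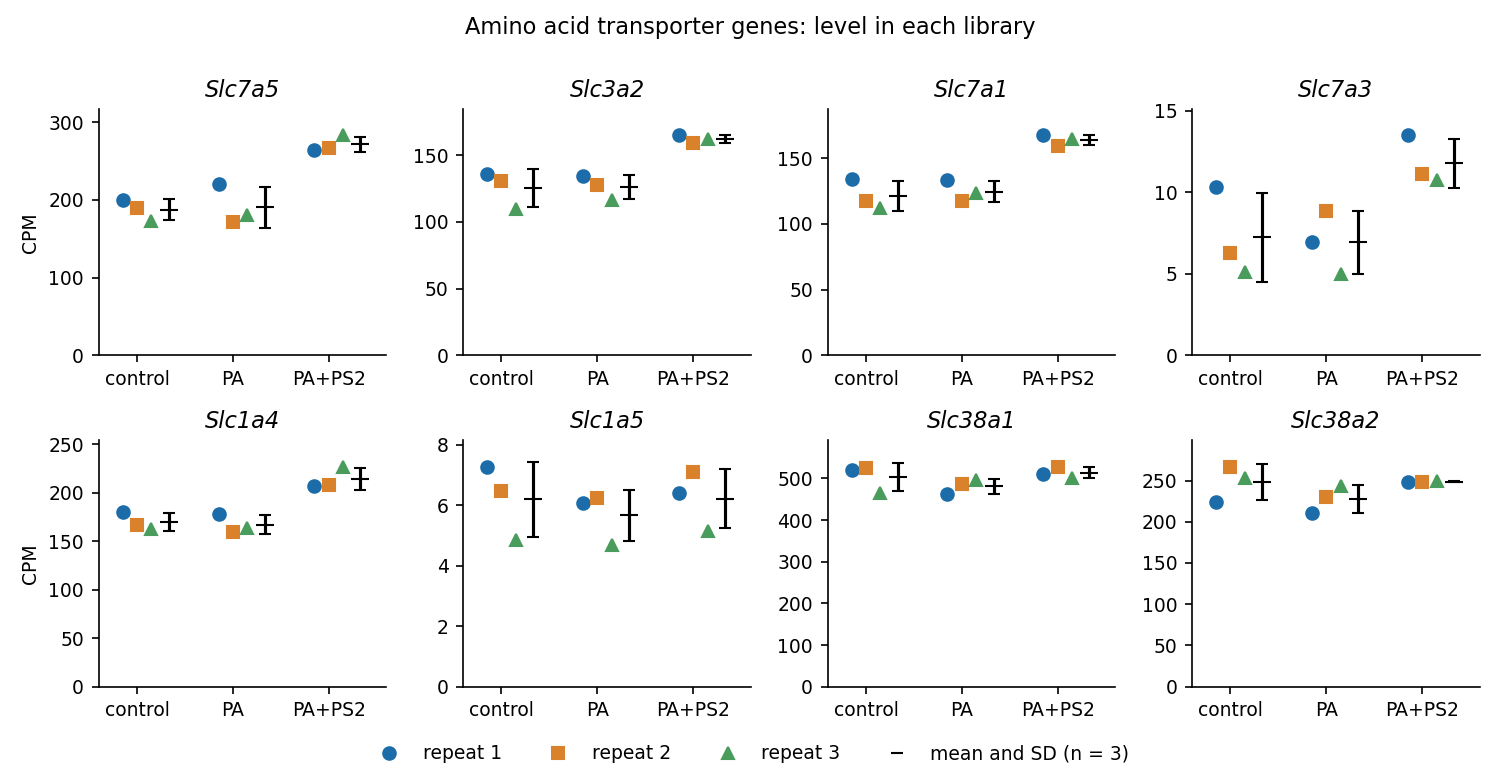
Level of each of the 8 carrier genes in CPM in every library, with symbols for the repeat numbers and the mean ± SD of 3 libraries beside each group; axes start at 0. The PA + PS2 libraries of Slc7a5 sit at 264 to 283 CPM, above all control (173 to 200.2) and PA (171 to 220.1) libraries, whereas those of Slc38a1 at 502 to 528 CPM overlap the controls at 465 to 525.

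Slc7a5 (ENSMUSG00000040010, mm10 chromosome 8, 121881150 to 121907694, minus strand), the LAT1 light chain that does the transport, stood at 200.2, 189.5 and 173 CPM in control repeats 1, 2 and 3. It stood at 220.1, 171 and 180 CPM in the PA repeats and at 264, 267 and 283 CPM in the PA + PS2 repeats. PA repeat 1 was the highest library outside PA + PS2, and no PA + PS2 library overlapped the other groups. The log2 fold change of PA + PS2 against control was 0.53 ± 0.11 (SE, n = 3 per group), a 1.45-fold difference with a 95% interval of 0.29 to 0.77 on the log2 scale. Its edgeR adjusted p was 0.11 over all genes (unadjusted 0.00041), and 0.023 with the repeat block. Within repeat numbers 1, 2 and 3 the difference of log2 CPM was 0.40, 0.50 and 0.71. Against PA the value was 0.51 ± 0.11 (edgeR adjusted p = 0.24), and PA against control gave 0.02 ± 0.11. Among all 15712 genes, 97.9% had a lower value than Slc7a5 in PA + PS2 against control.

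Slc3a2 (ENSMUSG00000010095, chromosome 19, 8706882 to 8723369, minus strand), the CD98 heavy chain, stood at 136, 131 and 109.5 CPM in control repeats 1, 2 and 3, and at 134, 128 and 116 CPM in PA. The PA + PS2 repeats stood at 165, 159 and 162.5 CPM. Repeat 3 was the lowest library in both control and PA, and all 3 PA + PS2 libraries lay above both groups. PA + PS2 against control gave 0.37 ± 0.10 (interval 0.15 to 0.59; edgeR adjusted p 0.24; with the block 0.049), with 0.28, 0.29 and 0.57 within the repeats. The block call of Slc3a2 thus lay at the edge of the threshold. PA + PS2 against PA gave 0.36 ± 0.10 (edgeR adjusted p = 0.37), and PA against control gave 0.01 ± 0.10.

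LAT1 and CD98hc work as a dimer, so the ratio of their RNA levels per kilobase of exon was taken in each library. The Slc7a5 to Slc3a2 ratio was 1.4, 1.38 and 1.5 in the controls, 1.56, 1.27 and 1.47 in PA and 1.53, 1.6 and 1.66 in PA + PS2. The PA + PS2 ratios lay above all control ratios and overlapped those of PA. Group means were 1.43 ± 0.066, 1.43 ± 0.15 and 1.59 ± 0.065 (SD, n = 3 each). The size of this ratio, though not its order between groups, depends on the length used for each gene.

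Slc7a1 (ENSMUSG00000041313, chromosome 5, 148327410 to 148399904, minus strand), the main arginine and lysine carrier CAT1, stood at 134, 117 and 112 CPM in control repeats 1, 2 and 3. It stood at 133, 117 and 123 CPM in PA and at 167, 159 and 164 CPM in PA + PS2. Its PA libraries lay inside the control range, and the PA + PS2 libraries lay together above it. PA + PS2 against control gave 0.43 ± 0.10 (interval 0.22 to 0.64), or 1.35-fold, with an edgeR adjusted p of 0.13 and of 0.023 with the repeat block. Within the repeats the difference was 0.32, 0.44 and 0.55. PA + PS2 against PA gave 0.39 ± 0.10 (edgeR adjusted p = 0.3), and PA against control gave 0.04 ± 0.10.

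Slc7a3 (ENSMUSG00000031297, chromosome X, 101079210 to 101086020, minus strand), the related carrier CAT3, was a low-count gene with 111 to 288 reads per library. It stood at 10.3, 6.26 and 5.11 CPM in control repeats 1, 2 and 3, at 6.97, 8.84 and 4.998 CPM in PA, and at 13.5, 11.1 and 10.7 CPM in PA + PS2. Control repeat 1 came close to the lowest PA + PS2 library, and repeat 3 was the lowest library of each group. The log2 fold change against control, 0.70 ± 0.27 or 1.62-fold, was the highest of the 8 and had the widest interval, 0.11 to 1.29. Its edgeR adjusted p was 0.62, and 0.14 with the repeat block. Within the repeats it was 0.39, 0.83 and 1.07, and leaving out a single library moved it between 0.50 and 1.05. PA + PS2 against PA gave 0.76 ± 0.27 (edgeR adjusted p = 0.59). PA against control gave −0.06 ± 0.27, with −0.56, 0.50 and −0.03 within the repeats, so repeats 1 and 2 went opposite ways.

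Slc1a4 (ENSMUSG00000020142, chromosome 11, 20302180 to 20332713, minus strand), the serine and alanine exchanger ASCT1 and the member whose promoter holds the motif, stood at 180, 166 and 163 CPM in the control repeats. It stood at 178, 160 and 164 CPM in PA and at 207, 208 and 227 CPM in PA + PS2. The PA and control libraries matched by repeat number within 0.06 log2 units, and the PA + PS2 libraries lay above all of them. PA + PS2 against control gave 0.33 ± 0.09 (interval 0.14 to 0.53), or 1.26-fold, with an edgeR adjusted p of 0.23 and of 0.08 with the repeat block. Within the repeats the difference was 0.20, 0.32 and 0.48. PA + PS2 against PA gave 0.35 ± 0.09 (edgeR adjusted p = 0.3), and PA against control gave −0.02 ± 0.09.

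Slc1a5 (ENSMUSG00000001918, chromosome 7, 16781340 to 16798274, plus strand), the glutamine exchanger ASCT2, had 105 to 184 reads per library. It stood at 7.27, 6.48 and 4.83 CPM in control repeats 1, 2 and 3, at 6.07, 6.24 and 4.70 CPM in PA, and at 6.40, 7.09 and 5.16 CPM in PA + PS2. Repeat 3 was the lowest library of every group, and the 3 groups overlapped. PA + PS2 against control gave 0.00 ± 0.21, with an interval of −0.46 to 0.47 that includes the values fitted for Slc3a2, Slc7a1 and Slc1a4. With the repeat block the SE of Slc1a5 was 0.16 in place of 0.21.

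Slc38a1 (ENSMUSG00000023169, chromosome 15, 96571418 to 96642913, minus strand), the neuronal glutamine carrier SNAT1, stood at 519.5, 525 and 465 CPM in the control repeats. It stood at 461, 486 and 495 CPM in PA and at 510.5, 528 and 502 CPM in PA + PS2. All 3 PA libraries lay below all 3 PA + PS2 libraries, while control libraries fell in both ranges. PA + PS2 against control gave 0.03 ± 0.09, with an interval of −0.16 to 0.22, and PA + PS2 against PA gave 0.10 ± 0.09 (interval −0.10 to 0.29; edgeR adjusted p = 1).

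Slc38a2 (ENSMUSG00000022462, chromosome 15, 96687392 to 96699730, minus strand), the system A carrier SNAT2 and the neighbour of Slc38a1 on chromosome 15, stood at 224, 267 and 253 CPM in control repeats 1, 2 and 3. It stood at 210.2, 230.1 and 243 CPM in PA and at 248, 248 and 249 CPM in PA + PS2. The PA + PS2 libraries differed by less than the libraries of either other group and lay inside the control range, above all 3 PA libraries. PA + PS2 against control gave 0.00 ± 0.10 with an interval of −0.20 to 0.21. That interval lies below the 0.53 fitted for Slc7a5, the 0.43 of Slc7a1 and the 0.33 of Slc1a4, although the difference between the genes was not itself tested. PA + PS2 against PA gave 0.13 ± 0.10 and PA against control −0.12 ± 0.10, with −0.09, −0.21 and −0.06 within the repeats.

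**Figure D2:**
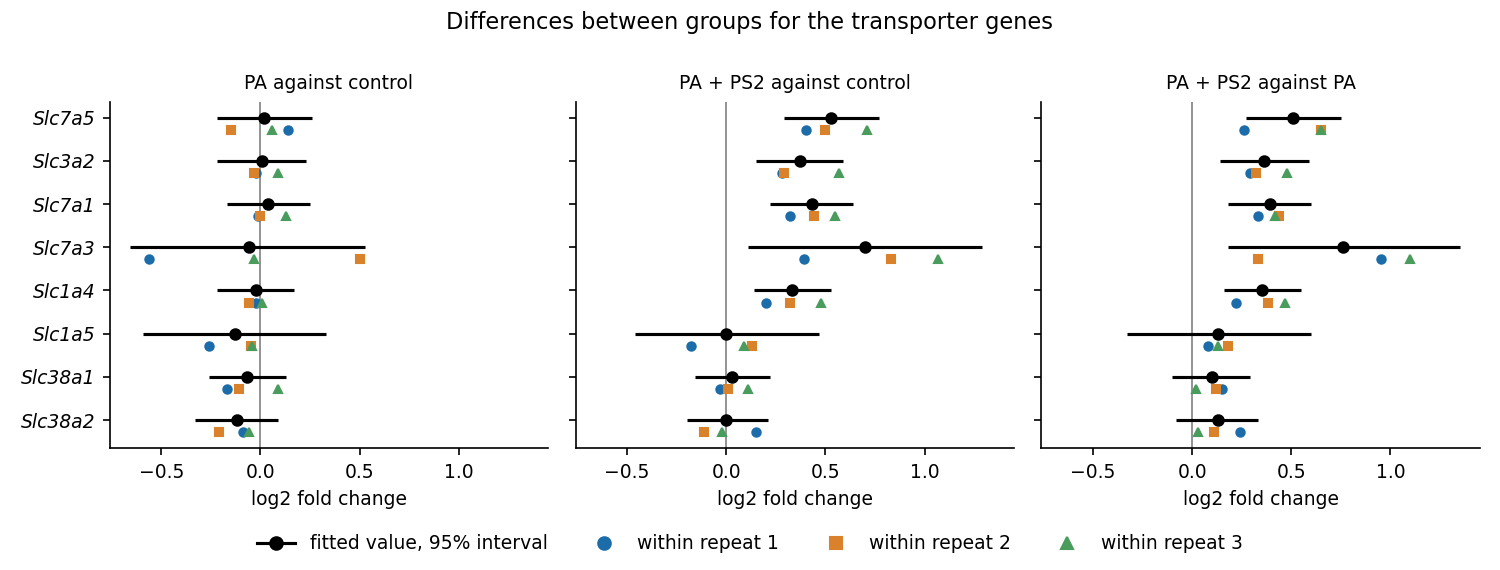
Fitted log2 fold change of each gene with its 95% interval (black) and the difference within each repeat number (coloured symbols) for the 3 comparisons, 3 libraries per group. In PA + PS2 against control the intervals of Slc7a5, Slc3a2, Slc7a1, Slc7a3 and Slc1a4 lie above 0, and those of Slc1a5, Slc38a1 and Slc38a2 span 0.

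Across the 8 carriers the median log2 fold change of PA + PS2 against control was 0.35, with a range of 0.00 to 0.70, beside a median of −0.001 over all genes tested. The groups did not overlap for 5 of 8 members, each higher in PA + PS2, and among all genes 5.38% were higher and 6.54% lower with no overlap. The same 5 were higher in all 3 repeat numbers, which follows from the lack of overlap, as were 15.5% of all genes. An unadjusted p under 0.05 was reached by 5 of 8 members and by 5.63% of all genes. With the repeat block 3 of 8 passed, Slc7a5, Slc3a2 and Slc7a1, against 1.17% of all genes. Genes called and higher with the block were 0.115% of all genes, and genes called and lower were 1.06% of all genes. In the fit without the block 0 of 8 passed, against 0.0446% of all genes.

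Against PA, which shares its PA + PS2 libraries with the comparison above, the median was 0.36, with a range of 0.10 to 0.76 and 0.005 over all genes. No overlap was seen for 7 of 8 members, the exception being Slc1a5, and 3.32% of all genes were higher with no overlap. The difference had the same sign in all 3 repeat numbers for 8 of 8 members, all higher in PA + PS2, as it was for 13% of all genes. For the 7 members without overlap this follows from the lack of overlap. An unadjusted p under 0.05 was reached by 5 of 8 members and 5.61% of all genes, and 0 of 8 passed the adjusted test, as did 0% of all genes.

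PA against control gave a median of −0.04 for the 8 members, with a range of −0.13 to 0.04 and −0.008 over all genes. The groups overlapped for 8 of 8 members, and 4.04% of all genes had groups that did not overlap. Slc1a5 and Slc38a2 were lower in PA in all 3 repeat numbers, as were 13.6% of all genes. By edgeR 0 of 8 passed, 0 of 8 reached an unadjusted p under 0.05 against 1.22% of all genes, and DESeq2 called 0 of 8 as well. The 95% intervals still allow differences of up to 0.26 for Slc7a5, 0.25 for Slc7a1 and 0.53 for Slc7a3.

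How much of the spread of a gene lay between groups differed among the carriers. Of the variance of log2 CPM over the 9 libraries, 86.8% lay between groups for Slc1a4, 86.3% for Slc7a1, 84.4% for Slc7a5, 77.7% for Slc3a2 and 56.2% for Slc7a3. For Slc38a2 and Slc38a1 the share was 35.4% and 34.2%, and for Slc1a5 it was 7.36%. The median over all genes was 16% between groups and 40.6% between repeat numbers. Because the 8 genes were chosen by differences between these same groups, their shares between groups are no independent evidence of a difference. Slc1a5 had 85.2% of its variance between repeat numbers, the highest of the 8, and Slc1a4 had 4.21%, the lowest.

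Levels between genes were compared per kilobase of length, as RPKM computed from the scaled counts. With the exon union of all transcripts as the length, Slc7a5 led the controls at 50.6 ± 3.70 RPKM (SD, n = 3), followed by Slc1a4 at 43.2 ± 2.35 and Slc3a2 at 35.5 ± 3.98. Slc38a1 at 29.2 ± 1.93 and Slc38a2 at 28.03 ± 2.48 came next and overlapped. Slc7a1 followed at 10.5 ± 0.996 RPKM, and Slc7a3 at 1.91 ± 0.722 and Slc1a5 at 1.48 ± 0.298 came last and overlapped. In PA the order was the same, with Slc7a5 at 51.3 ± 7.06 RPKM. In PA + PS2 it was again the same, with Slc7a5 at 73.2 ± 2.67 RPKM and Slc7a3 at 3.11 ± 0.393 above Slc1a5 at 1.49 ± 0.235 without overlap.

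The order depends on the length used, since the exon union of Slc38a1 is 17236 bases and its longest coding transcript 7266. With the longest coding transcript, Slc38a1 led the controls at 69.2 ± 4.59 RPKM, above Slc7a5 at 53.3 ± 3.90. Slc38a2 at 53.2 ± 4.70, Slc3a2 at 44.6 ± 5.0 and Slc1a4 at 43.2 ± 2.35 followed, each overlapping its neighbour. In PA + PS2 Slc7a5 led by this length too, at 77.2 ± 2.82 RPKM against 70.7 ± 1.84 for Slc38a1, without overlap. Under both lengths Slc7a1 stood sixth, and Slc7a3 and Slc1a5 closed the order.

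**Figure D3:**
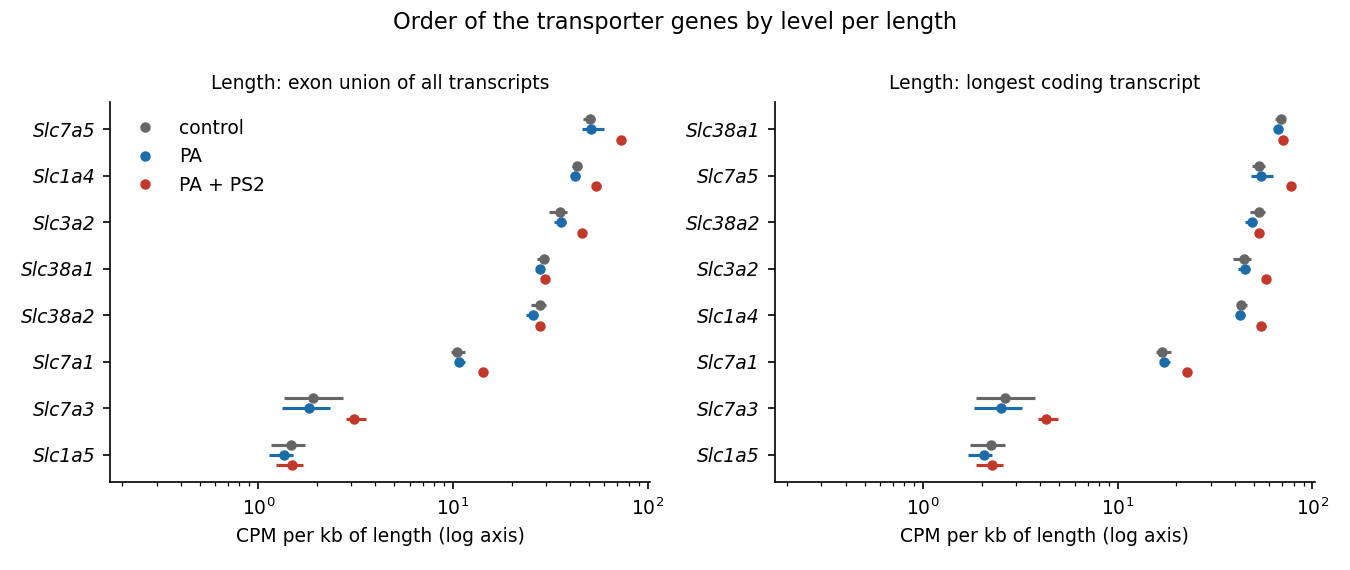
Mean level per kilobase of length in RPKM (log axis) for the 8 carriers in the 3 groups, with lines from the lowest to the highest of 3 libraries, for exon union and longest coding transcript. Slc7a5 leads every group on the left, while on the right Slc38a1 leads control (69.2) and PA (66.2), and Slc7a5 leads PA + PS2 (77.2).

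Ratios of RPKM over the exon union were also taken within each family. The Slc7a1 to Slc7a3 ratio was 5.88 ± 1.5 in control, 6.24 ± 1.9 in PA and 4.6 ± 0.49 in PA + PS2. The Slc1a4 to Slc1a5 ratio was 29.8 ± 5.2, 31.8 ± 5.0 and 37.4 ± 8.2, and the Slc38a1 to Slc38a2 ratio 1.05 ± 0.13, 1.08 ± 0.041 and 1.06 ± 0.03. For these 3 ratios the groups overlapped. The size of the ratios, and of the shares below, depends on the length used. By the longest coding transcript Slc38a1 stood at 69.2 ± 4.59 RPKM in control, above Slc38a2 at 53.2 ± 4.70 without overlap. Of the summed RPKM of the 8 carriers, Slc7a5 held 25.0% to 25.7% in the control libraries and 28.7% to 29.8% in the PA + PS2 libraries, with PA at 24.1% to 28.5%. Slc38a1 held 14.3% to 14.9% of it in control and 11.4% to 12.4% in PA + PS2.

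The profiles over the 9 libraries were compared by the Pearson correlation of log2 CPM, as a description over libraries that share the groups, the repeat numbers and the scaling. Slc7a5 ran most closely with Slc1a4 (0.979) and Slc7a1 (0.97), then with Yars, the tyrosyl-tRNA synthetase (0.953). For Slc3a2 the closest genes were Cars, the cysteinyl-tRNA synthetase (0.966), Atf4 (0.961) and Aars, the alanyl-tRNA synthetase (0.949). Slc7a1 ran with Slc7a5, Slc1a4 (0.965) and Aars (0.945), and Slc1a4 with Slc7a5, Nars, the asparaginyl-tRNA synthetase (0.966), and Slc7a1. For Slc7a3 they were Pomk, a kinase of dystroglycan glycosylation (0.978), Cars (0.968) and Ubap1, a protein of endosomal sorting (0.948).

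The other members had neighbours outside this group of genes. Slc1a5 ran with Rit1, a small GTPase (0.964), the immediate-early gene Ier2 (0.953) and Ip6k2, an inositol phosphate kinase (0.952). Slc38a1 ran with Sde2 (0.955), Slc29a3, a nucleoside transporter (0.927), and Dusp18, a phosphatase (0.881). Slc38a2 ran with Zfp113 (0.97), the autophagy protease Atg4c (0.966) and Ero1lb, an oxidase of the endoplasmic reticulum (0.943). After the group means were removed, Slc7a5 kept a correlation of 0.878 with Slc1a4, 0.806 with Slc7a1 and 0.667 with Slc3a2 over the 9 libraries, while its correlation with Slc7a3 went from 0.749 to 0.236. That of Slc7a3 with Slc1a4 went from 0.768 to 0.291, while Slc7a3 kept 0.781 with Slc3a2 and 0.551 with Slc7a1. Slc1a5 stood at 0.787 with Slc3a2 and 0.789 with Slc7a3 after the same step. With Slc7a1, Slc7a5 and Slc1a4 it stood at 0.43, 0.314 and 0.117. Slc38a2 by the same measure stood at −0.653 with Slc7a5 and −0.783 with Slc7a1, and at 0.185 with Slc38a1.

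Other amino acid carriers of the plasma membrane formed a list of 23 genes, of which 16 were tested. In PA + PS2 against control 0 of 16 passed with or without the block, and the median was 0.13. With no overlap 2 were higher and 1 lower, beside 5.38% and 6.54% of all genes. Slc6a9, the glycine transporter GlyT1, stood at 18.3 ± 1.33 CPM in PA + PS2 and 12.6 ± 2.43 CPM in control, a log2 difference of 0.54 ± 0.15 (edgeR adjusted p = 0.27). Slc7a8, the light chain LAT2 that also pairs with CD98hc, was the gene with no overlap on the lower side, at 37.8 ± 4.31 CPM against 46.3 ± 5.89 CPM, or −0.29 ± 0.14 (edgeR adjusted p = 0.92). Slc3a1, the heavy chain that pairs with other light chains, was under 1 CPM in every library. It and Slc6a9 were the genes higher with no overlap, Slc3a1 at 1.1 ± 0.67 (edgeR unadjusted p = 0.13). In PA + PS2 against PA Slc7a11, the cystine carrier xCT whose promoter is shown above, gave 0.87 ± 0.30, from 2.11 ± 0.692 CPM in PA to 3.86 ± 0.273 CPM (edgeR adjusted p = 0.59). Slc38a3, the glutamine carrier SNAT3, gave −1.08 ± 0.32 in that comparison and 0.92 ± 0.31 in PA against control (edgeR adjusted p = 0.39 and 1).

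Glutamate transporters, lysosomal carriers and genes of amino acid sensing had list medians nearer to 0 than the 8 members in PA + PS2 against control. Glutamate transporters, 4 tested of 5, had a median of −0.11 in PA + PS2 against control, and the astrocyte carrier Slc1a3 gave −0.64 ± 0.31 (edgeR adjusted p = 0.96). Amino acid transporters of the lysosome, 8 tested of 8, had a median of −0.03 and a range of −0.09 to 0.08. Genes of amino acid sensing upstream of mTORC1 and GCN2, 25 tested of 26, had a median of 0.01. Of these 25, Sesn1, a leucine-linked inhibitor of mTORC1, gave 0.23 ± 0.09 (edgeR adjusted p = 0.67). It was 1 of 2 higher with no overlap, beside 5.38% of all genes, the other being the GTPase gene Rraga at 0.11 ± 0.09. In each of these 3 lists 0 genes passed with or without the block.

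Genes of the amino acid response and of serine, asparagine and proline synthesis numbered 25, with 23 tested. In PA + PS2 against control 16 of the 23 had values above 0, where 49.8% of all genes did, and 7 below 0. The median was 0.18. With no overlap 8 were higher and 1 lower, beside 5.38% and 6.54% of all genes. None passed without the block. With it 4 passed, all higher, where 0.115% of all genes did. They were Atf4, Atf5, Aldh1l2 and Chac1, the last named after its values were seen. Atf4, the transcription factor of this response, had 216, 212 and 189 CPM in control repeats 1, 2 and 3 and 283, 274 and 272 CPM in those of PA + PS2, or 0.43 ± 0.10 (edgeR adjusted p 0.16; with the block 0.03). Asns, asparagine synthetase, had 129.5, 119 and 105 CPM in control repeats 1, 2 and 3 and 152, 148 and 173 CPM in those of PA + PS2, or 0.42 ± 0.10 (edgeR adjusted p 0.17; with the block 0.073). Both genes had 3 PA + PS2 libraries above all controls, as did Atf5 at 0.41 ± 0.10 (edgeR adjusted p 0.18; with the block 0.037). Aldh1l2, a mitochondrial folate enzyme, gave 0.53 ± 0.19 (edgeR adjusted p 0.5; with the block 0.03). Chac1, which degrades glutathione, gave 0.62 ± 0.19 (edgeR adjusted p 0.35; with the block 0.035). Cth, cystathionine gamma-lyase, was the gene with no overlap on the lower side, at 0.630 ± 0.146 CPM against 1.51 ± 0.299 CPM. Its log2 fold change, −1.26, was the furthest from 0 in the list.

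Cytosolic aminoacyl-tRNA synthetases, which load amino acids onto tRNA, numbered 20, all tested. In PA + PS2 against control 19 of 20 had values above 0, where 49.8% of all genes did, and the median was 0.16. No overlap was seen for 11 of 20, all higher, beside 5.38% of all genes higher with no overlap. Cars1, listed in the annotation as Cars, had 94.5, 81.6 and 72.2 CPM in control repeats 1, 2 and 3 and 121, 114 and 112 CPM in those of PA + PS2, or 0.48 ± 0.12 (edgeR adjusted p 0.18; with the block 0.026). It was the 1 synthetase that passed with the block, where 0.115% of all genes passed and were higher. Nars1 gave 0.32 ± 0.08 and Iars1 0.30 ± 0.08 (edgeR adjusted p = 0.19 and 0.22), with block values of 0.078 and 0.073. In PA against control the median of this list was 0.00 and that of the amino acid response list −0.02.

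**Figure D4:**
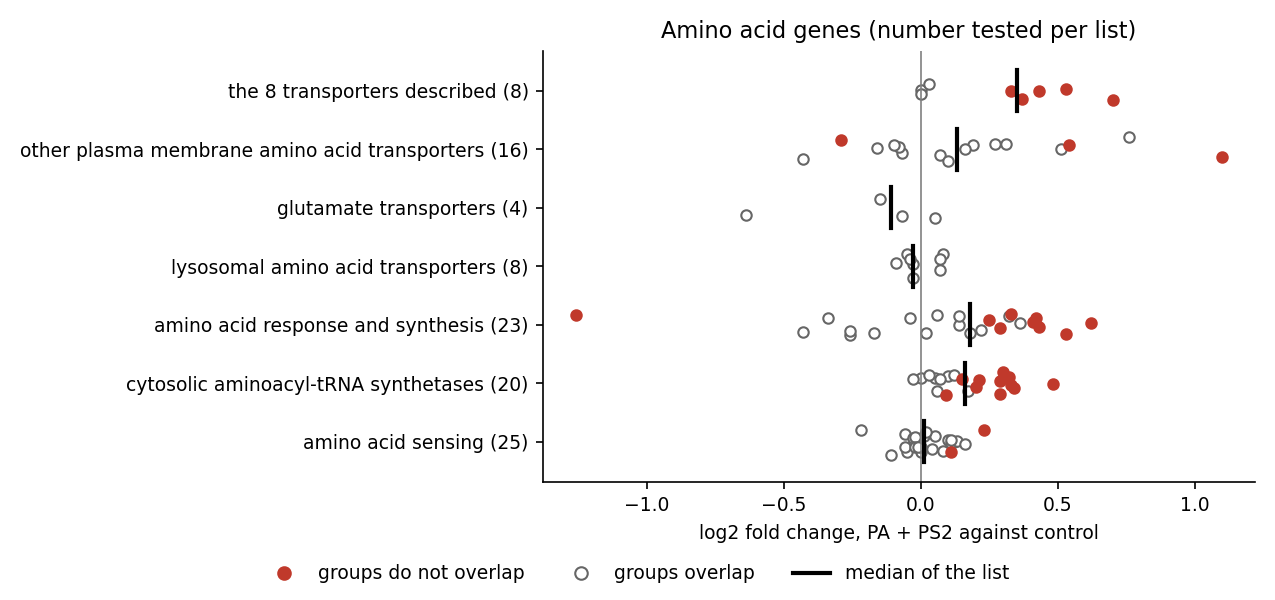
Log2 fold change of PA + PS2 against control for every tested gene of 7 lists, filled where the 3 libraries of the groups do not overlap, with the median of each list as a bar. The 8 carriers described here have a median of 0.35, other plasma membrane carriers 0.13, amino acid response genes 0.18, tRNA synthetases 0.16 and lysosomal carriers −0.03.

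Summed markers of several other cell types had lower levels in PA + PS2 than in control, some without overlap. Summed markers of pericytes, fibroblasts and meninges stood at 142 to 202 CPM in control, 94.1 to 165 CPM in PA and 13.3 to 60.8 CPM in PA + PS2, or 25.9% of the control mean in PA + PS2. Of the tested markers 0 passed in any of these lists without the block. With it, PA + PS2 against control called 4 of 11 pericyte, fibroblast and meningeal markers, 7 of 12 proliferation genes, 3 of 8 oligodendrocyte lineage markers and 2 of 7 neural progenitor markers, all lower, beside the 1.06% of all genes. Proliferation genes stood at 154 to 333 CPM in control and 125 to 151 CPM in PA + PS2, and neural progenitor markers at 289 to 409 CPM and 215 to 244 CPM. Endothelial markers, 3 tested of 8, stood at 5.998 to 9.02 CPM in control and 2.12 to 4.47 CPM in PA + PS2. Microglia markers stood at 65.9% of the control mean in PA + PS2, with no overlap. The summed PA + PS2 and control libraries overlapped for astrocyte markers, at 84.8%, oligodendrocyte lineage markers, at 85.9%, and choroid plexus and ependyma markers, at 108%. Among the 8 oligodendrocyte lineage markers, 6 log2 fold changes lay below 0 and 2 above, with a median of −0.88. Pdgfra (−2.46), Olig1 (−2.42) and Olig2 (−1.97) were lower with no overlap, and Mbp (0.46), the most abundant in both groups, was higher with no overlap. Of 8 tested astrocyte markers, 6 lay below 0 and 2 above, with a median of −0.16, and Gja1 (−1.06) was lower with no overlap. Neuron markers stood at 104% of the control mean, from 7281 to 8006 CPM. The part of these differences in the levels of the carriers was not tested.

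**Figure D5:**
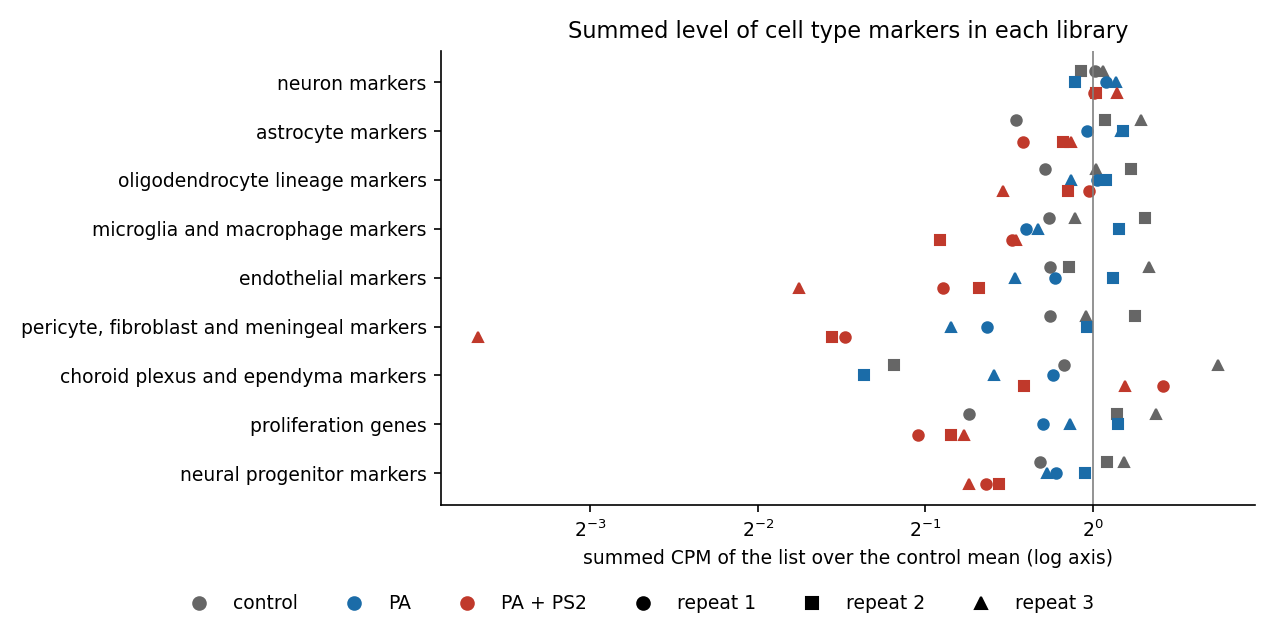
Summed CPM of 9 marker lists in every library relative to the control mean (log axis), coloured by group with symbols for the repeat number. Neuron markers lie near the control mean in all 9 libraries, while pericyte, fibroblast and meningeal markers lie below all controls in the 3 PA + PS2 libraries, with repeat 3 lowest at 13.3 CPM.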

How the data were processed

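Values were raw read counts per Ensembl gene, which the authors deposited as 1 file per library with no normalization. Build mm10 and the tools DESeq2 1.14.1, HTSeq 2.0.2, STAR 2.7.5 and cutadapt 4.2 are named, without settings, per the submitters' processing notes. The labels give polyA RNA as the molecule and a kit for total RNA. The strand setting is not given in the sources used here, and no exon of the 8 genes overlaps an exon of another gene in GENCODE M21, which matched 54165 of 54232 identifiers.

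Counts of all 9 libraries were fitted in edgeR 4.0.16 (R 4.3.3) and tested 2-sided by quasi-likelihood, with TMM scaling, filterByExpr (minimum count 10, total 15) and Benjamini-Hochberg adjustment over 15712 genes at 0.05. SE was derived from the F statistic, as the size of the log2 fold change divided by its square root, and CPM are given as mean ± SD. Counting error of a gene follows from its reads, given for the low genes. Alternatives were DESeq2 1.42.0, other scalings and filters, the 2 groups alone, each library left out and the repeat block.

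Deviations from the group mean of libraries with the same repeat number correlated across genes at 0.422, 0.365 and 0.28 for PA and control, and at 0.183, 0.217 and 0.135 for PA + PS2 and control. The block is therefore printed beside results against control where it changed a call. For PA + PS2 and PA they were 0.0147, 0.292 and 0.302.

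The members and lists were chosen with earlier results of these data known. Named genes were all 8 members, up to 3 genes of each other list with the smallest unadjusted p in a comparison where none passed, and the 3 genes with at least 5 mean CPM most correlated with each member. Genes picked for 1 comparison may be printed for another. Chac1 falls outside this rule and was named after its values were seen.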

Additional observations from a re-analysis of the deposited data

How the results depend on the processing

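Without a filter on low counts, PA against control called 23 genes in place of 0. For PA + PS2 against control the 7 genes called became 17 with the size factors of DESeq2, 365 without the filter, 3 at a mean of at least 1 CPM, 224 with DESeq2, 184 with the repeat block and 28 with the 2 groups alone, and 0 to 175 without single libraries (175 without control repeat 1, 0 without control repeat 2 or 3 or PA + PS2 repeat 1). For PA + PS2 against PA the 0 became 330, 128 and 57 without the filter, with DESeq2 and with the repeat block, and 0 to 37 without single libraries. Of the 8 carriers, PA + PS2 against control called 2 without the filter (Slc7a5 and Slc7a1), 3 with DESeq2 (these and Slc1a4), 3 with the repeat block, 1 with the 2 groups alone (Slc7a5) and 0 to 1 without single libraries (Slc7a1 without control repeat 1, Slc7a5 without PA repeat 1). Against PA it called 2 without the filter, 3 with DESeq2, 1 with the repeat block (Slc7a5, edgeR adjusted p = 0.041) and 0 without any single library. The cause of these shifts was not tested. Carriers higher in every library were counted again only with the other scalings and without single libraries. Leaving out a library can only keep or raise this count. For PA against control it was 0 to 1 (1 without control repeat 1), and for PA + PS2 against control it stayed at 5. For PA + PS2 against PA it was 6 to 7 with the other scalings and 7 to 8 without single libraries.

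For Slc7a5 in PA + PS2 against control the value ran from 0.48 to 0.58 and the adjusted p from 0.0025 to 0.44 over 16 alternatives; for Slc3a2 the p ran from 0.049 to 0.84, for Slc7a1 from 0.0077 to 0.57 and for Slc1a4 from 0.045 to 0.87. Values near 0 changed sign. In PA against control the ranges without single libraries were −0.10 to 0.08 for Slc7a5, −0.08 to 0.07 for Slc3a2, −0.01 to 0.12 for Slc7a1, −0.29 to 0.28 for Slc7a3, −0.07 to 0.02 for Slc1a4 and −0.28 to 0.002 for Slc1a5. In PA + PS2 against control they were −0.14 to 0.14 for Slc1a5, −0.02 to 0.07 for Slc38a1 and −0.06 to 0.07 for Slc38a2, and Slc1a5 and Slc38a2 stood at −0.02 with upper-quartile scaling and −0.001 at a mean of at least 1 CPM. In PA + PS2 against PA 0 values changed sign. Slc1a5 and Slc7a3 had the lowest read numbers and the widest intervals of the 8, and the part of depth was not tested. With the repeat block their SE in PA + PS2 against control was 0.16 and 0.2, and that of Slc7a5 was 0.09 in place of 0.11.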
